A study of Oryctolagus cuniculus with 17 samples.

Results

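The angiopoietins, the Tie receptors and the phosphatase that acts on them were described in the lungs of preterm rabbit pups kept in high oxygen. The 5 genes were ANGPT1, ANGPT2, TEK, TIE1 and PTPRB, found in the table of raw counts by the human gene name it lists, with the entry of highest total count kept for each name. Each name had 1 entry, so the genes were 5 of the 13827 entries of the table, and all 5 passed the filter on low counts that left 13142 genes for testing. The purpose of the study was to follow how gene expression of the immature lung responds to oxygen over the first days after birth. New Zealand White pups were taken by C-section on gestation day 28, before term, and were tube-fed a milk replacer in incubators at 95% oxygen (hyperoxia, groups HT3, HT5 and HT7) or at 21% oxygen, the level of room air (normoxia, groups NT3, NT5 and NT7). RNA came from a homogenate of the right lung on postnatal day 3, 5 or 7, with 3 samples per group except HT5, which had 2. All groups therefore shared the preterm birth and the artificial feeding, and no pup born at term was analysed here.

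Angiopoietins are secreted ligands of Tie2, the receptor tyrosine kinase encoded by TEK, which is found mainly on endothelial cells, the cells that line blood vessels. Angiopoietin-1, made by pericytes and other cells around vessels, activates Tie2 and helps to keep vessels quiescent and tight, whereas angiopoietin-2, stored and released by endothelial cells, activates it weakly and can block angiopoietin-1. TIE1 encodes a receptor that pairs with Tie2 and changes its response to the ligands. PTPRB encodes VE-PTP, an endothelial phosphatase that removes phosphate from Tie2 and steadies the junction protein VE-cadherin. In the lung these genes are known for their part in the growth of the capillary bed around the airspaces and in the leak of fluid across it.

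Total counts, with each locus counted once, lay between 13123731 and 18111086 per sample. The counts of the 5 genes lay between 430 and 22355, so that counting error was small beside the wider spreads between samples. Where the spread was narrow, as for ANGPT1 in HT5 with 558 and 657 counts, counting error was not small beside it. Levels are given below as CPM, the counts of a gene as a share of the library total, scaled by TMM factors, and are compared only for 1 gene across samples, since no transcript lengths were used. Differences are log2 fold changes (log2FC) with their standard error (SE) from edgeR's quasi-likelihood test, and adjusted p-values are by Benjamini-Hochberg over the 13142 genes. A gene was called at an adjusted p under 0.01, and counted as a differentially expressed gene (DEG) when its log2FC also lay above 2 or below -2. The labels do not tell whether pups of different groups came from 1 litter, so the p-values measure the spread between these samples only. Markers of lung were present in every sample, but the sum of 10 tested genes of alveolar epithelium was uneven within hyperoxia. It was 34684 and 14165 CPM in HT5 replicates 1 and 2, and 15543, 30724 and 17824 CPM in the HT7 replicates, against 17682 to 28742 CPM over the normoxia samples and 28501 to 32542 CPM in HT3. Markers of skeletal muscle were uneven, with 6 genes summing to 417 CPM in HT3 replicate 2 and 375 CPM in HT5 replicate 1 against 57.8 to 115 CPM in the other samples, and values without these libraries are given where they matter.

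ANGPT2 was higher in hyperoxia on every day, and the other 4 genes were lower by day 5. On day 3, 1 of the 5 genes was called higher, in a comparison that called 0.0989% of all tested genes higher, and 1 was called lower, against 0.107% of all genes. On day 5, 1 was called higher and 4 lower, where 8.56% and 7.62% of all genes were called higher and lower. On day 7 the split was the same, 1 higher and 4 lower, with 16.7% and 16.9% of all genes called in those directions. ANGPT2 was a DEG on each day, where DEGs higher in hyperoxia made up 0.0533%, 0.822% and 1.75% of all genes on days 3, 5 and 7. The other 4 genes were DEGs on day 7, among 2.84% of all genes that were DEGs lower in hyperoxia. The CPM of the hyperoxia and normoxia samples did not overlap for 3 of the 5 genes on day 3 and for all 5 on days 5 and 7, beside 26.7%, 55.7% and 54.5% of all tested genes. The median log2FC of the 5 genes was 0.31, -1.58 and -2.26 on days 3, 5 and 7, beside medians of 0.00, -0.02 and -0.01 over all tested genes.

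**Figure D1:**
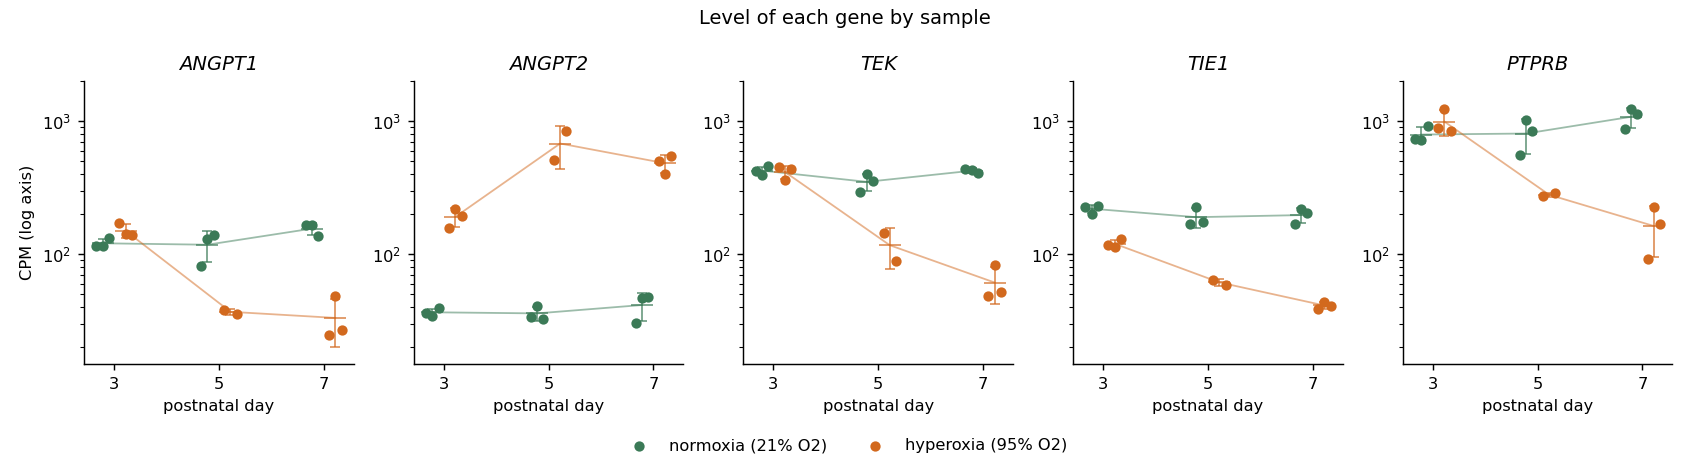
Level of each gene by sample, in CPM on a log axis, against postnatal day, with normoxia in green and hyperoxia in orange. Each point is 1 sample, lines join the group means and bars are 1 SD. ANGPT2 lies between 158 and 850 CPM in hyperoxia and between 30.3 and 47.5 CPM in normoxia, and the hyperoxia points of the other 4 genes lie below those of normoxia on days 5 and 7.

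ANGPT2, the gene of the context-dependent ligand, is listed as ENSOCUG00000015377 on the scaffold GL018713 at 617878 to 676188 of OryCun2.0, plus strand. In normoxia its level was 36.4, 34.4 and 39.3 CPM in the 3 samples of day 3, 34.1, 41.2 and 32.8 CPM on day 5, and 30.3, 47.1 and 47.5 CPM on day 7. In hyperoxia it was 158, 219 and 195 CPM on day 3, 508 and 850 CPM on day 5, and 506, 399 and 544 CPM on day 7. Every hyperoxia sample thus lay above every normoxia sample, and the lowest of them was a day 3 sample. The level in hyperoxia was 5.2-fold higher on day 3 (log2FC 2.38, SE 0.21, edgeR adjusted p = 0.000188), and ANGPT2 had the smallest p-value of all 13142 genes on that day. On day 5 it was 18.9-fold higher (log2FC 4.24, SE 0.24, edgeR adjusted p = 2.28e-07), again with the smallest p-value of all genes. On day 7 it was 11.6-fold higher (log2FC 3.54, SE 0.22, edgeR adjusted p = 1.73e-07) and ranked 9 by p-value. The group means in falling order were those of HT5, HT7, HT3, NT7, NT3 and NT5. The ranges of HT5 and HT7 overlapped, as did those of the 3 normoxia groups, whereas HT3 stood apart from its neighbours on either side.

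ANGPT2 kept its call without the libraries that held muscle markers, with a log2FC of 2.27 on day 3 without HT3 replicate 2 and 4.56 on day 5 without HT5 replicate 1 (edgeR adjusted p = 0.00141 and 7.22e-08). Samples that share a replicate number deviated together on days 3 and 5. On day 3 a fit with the replicate number as a block gave 2.37 for ANGPT2 (edgeR adjusted p = 0.00635), which kept the call. ANGPT2 lies within the span of MCPH1, a gene on the opposite strand at 559355 to 796502 of the same scaffold. MCPH1 has a locus of its own in the table with 152 to 284 counts per sample, whereas ANGPT2 had 444 to 762 counts in normoxia and 2678 to 15707 in hyperoxia. The libraries keep strand, but the strand setting of the counting is not given in the sources used here.

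ANGPT1, the gene of the activating ligand, is listed as ENSOCUG00000003722 on chromosome 3 at 122698602 to 122944957, minus strand. In normoxia it measured 115, 116 and 132 CPM on day 3, 82.1, 131 and 140 CPM on day 5, and 165, 167 and 137 CPM on day 7. In hyperoxia it measured 171, 141 and 139 CPM on day 3, 38.4 and 35.5 CPM on day 5, and 24.8, 48.3 and 26.9 CPM on day 7. On day 3 the 3 hyperoxia samples lay just above the normoxia samples of that day, without a called difference (log2FC 0.31, SE 0.22, edgeR adjusted p = 0.537). On days 5 and 7 all 5 hyperoxia samples lay below the lowest normoxia sample, by 3.19-fold between groups on day 5 (log2FC -1.67, SE 0.27, edgeR adjusted p = 0.000603) and 4.69-fold on day 7 (log2FC -2.23, SE 0.24, edgeR adjusted p = 7.08e-06). The day 5 call was lost without HT5 replicate 2 (log2FC -1.64, edgeR adjusted p = 0.0186), which left 1 hyperoxia sample. The means of HT5 and HT7 were 37.0 and 33.3 CPM and their ranges overlapped. Because lung homogenate mixes many cell types, fewer cells of a type and less RNA per cell cannot be told apart for ANGPT1 or for any gene below.

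The balance of the ligands was described by the ratio of ANGPT2 to ANGPT1 counts in each sample, which is not corrected for transcript length and is read only between samples. In normoxia the ratio lay between 0.297 and 0.316 on day 3, 0.234 and 0.415 on day 5, and 0.184 and 0.346 on day 7. In hyperoxia it lay between 0.924 and 1.55 on day 3, and reached 13.2 and 23.9 in the samples of day 5 and 8.26 to 20.4 on day 7. On the log2 scale the mean was -1.72 ± 0.05 in NT3, -1.68 ± 0.41 in NT5 and -1.93 ± 0.47 in NT7 (SD, n = 3 each). It was 0.34 ± 0.40 in HT3 (SD, n = 3), 4.15 ± 0.60 in HT5 (SD, n = 2) and 3.91 ± 0.75 in HT7 (SD, n = 3). On day 3 the ratio differed from normoxia through ANGPT2 alone as far as calls go, and on days 5 and 7 both ligands were called, in opposite directions. The ratio is given as a description without a test.

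**Figure D2:**
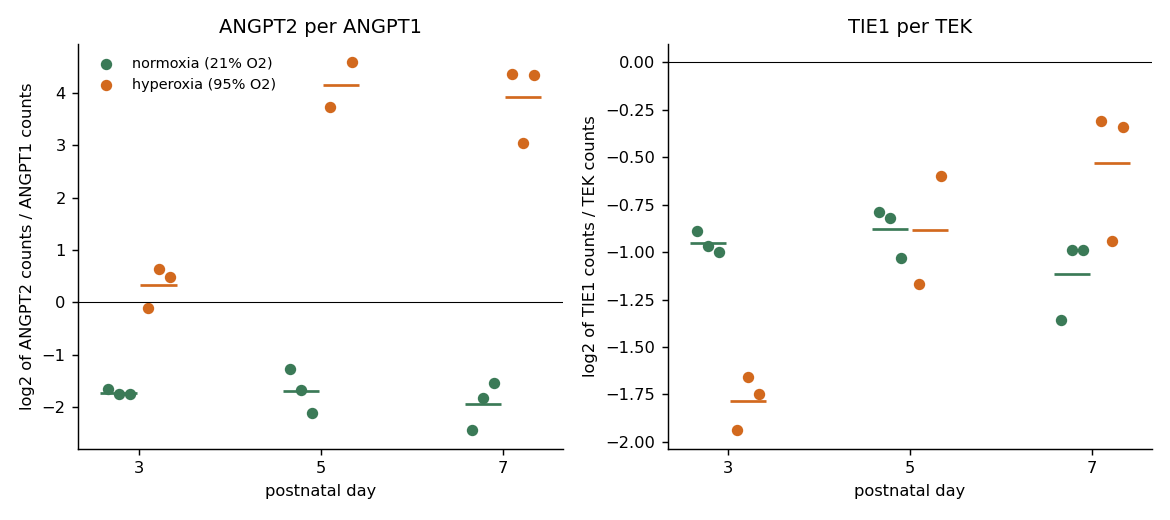
Ratio of counts within each sample on a log2 scale, against postnatal day, for ANGPT2 per ANGPT1 (left) and TIE1 per TEK (right), with normoxia in green and hyperoxia in orange. Points are samples and bars are group means. The means of ANGPT2 per ANGPT1 are 0.34, 4.15 and 3.91 in hyperoxia and -1.72, -1.68 and -1.93 in normoxia, whereas TIE1 per TEK lies below normoxia in hyperoxia on day 3 and above it on day 7.

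TEK, the gene of the receptor Tie2, is listed as ENSOCUG00000017666 on chromosome 1 at 26309584 to 26438157, minus strand. Its level in normoxia was 422, 395 and 457 CPM on day 3, 294, 399 and 356 CPM on day 5, and 437, 430 and 405 CPM on day 7. In hyperoxia it was 449, 361 and 435 CPM on day 3, 145 and 88.7 CPM on day 5, and 48.5, 83.5 and 52.1 CPM on day 7. The groups overlapped on day 3, with a log2FC of -0.03 (SE 0.20, edgeR adjusted p = 0.959) whose sign changed when HT3 replicate 2 or NT3 replicate 3 was left out (0.06 and 0.02). The later samples did not overlap those of normoxia, and TEK was 3.0-fold lower on day 5 (log2FC -1.58, SE 0.24, edgeR adjusted p = 0.000394) and 6.91-fold lower on day 7 (log2FC -2.79, SE 0.21, edgeR adjusted p = 8.91e-07). On day 7 it ranked 25 by p-value among all genes tested. Without HT5 replicate 2, the lower of the pair, the day 5 call was lost (log2FC -1.29, edgeR adjusted p = 0.0138). The groups HT5 and HT7 had means of 117 and 61.4 CPM and did not overlap.

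TIE1, the gene of the partner receptor of Tie2, is listed as ENSOCUG00000008969 on chromosome 13 at 123339073 to 123348145, minus strand. In normoxia it stood at 228, 202 and 229 CPM on day 3, 170, 226 and 174 CPM on day 5, and 170, 217 and 204 CPM on day 7. In hyperoxia it stood at 117, 114 and 130 CPM on day 3, 64.4 and 58.6 CPM on day 5, and 39.1, 43.6 and 41.1 CPM on day 7. All 8 hyperoxia samples lay below all 9 normoxia samples, and the hyperoxia groups did not overlap each other. TIE1 was 1.83-fold lower on day 3 (log2FC -0.87, SE 0.12, edgeR adjusted p = 0.00316), 3.09-fold lower on day 5 (log2FC -1.63, SE 0.14, edgeR adjusted p = 1.5e-05) and 4.77-fold lower on day 7 (log2FC -2.26, SE 0.13, edgeR adjusted p = 1.43e-07). It ranked 16, 10 and 1 by p-value among the 13142 genes on those days, with the smallest SE of the 5 genes each time.

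The day 3 call of TIE1 was narrow although its size held. With the replicate number as a block the log2FC was -0.87 and was not called (SE 0.12, edgeR adjusted p = 0.027). The call was likewise lost without HT3 replicate 1, HT3 replicate 2, NT3 replicate 1, NT3 replicate 2 or NT3 replicate 3, where the log2FC lay between -0.93 and -0.83 and the edgeR adjusted p between 0.0111 and 0.0235. Of the 6 fits that left out 1 sample of the day, that without HT3 replicate 3 kept the call (edgeR adjusted p = 0.00984).

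The receptors were set beside each other by the ratio of TIE1 to TEK counts, which is read between samples only. It lay between 0.389 and 0.577 over the 9 normoxia samples of the 3 days, and between 0.26 and 0.316 in HT3, where TIE1 was called lower and TEK was not. It lay between 0.445 and 0.66 in HT5, across the normoxia range of that day, and between 0.522 and 0.807 in HT7, above the highest NT7 sample at 0.505. The ratio in hyperoxia was thus below the normoxia samples on day 3 and above them on day 7, and it was not tested.

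PTPRB, the gene of VE-PTP, is listed as ENSOCUG00000012045 on chromosome 4 at 49512027 to 49651804, minus strand. Its level in normoxia was 729, 727 and 923 CPM on day 3, 552, 1021 and 847 CPM on day 5, and 869, 1228 and 1134 CPM on day 7. In hyperoxia it was 894, 1238 and 844 CPM on day 3, 273 and 287 CPM on day 5, and 92.4, 226 and 170 CPM on day 7. The groups overlapped on day 3 (log2FC 0.32, SE 0.28, edgeR adjusted p = 0.625), where the log2FC was 0.13 without HT3 replicate 2, the sample with muscle markers, and they were apart on the later days. PTPRB was 2.88-fold lower on day 5 (log2FC -1.53, SE 0.33, edgeR adjusted p = 0.00332) and 6.62-fold lower on day 7 (log2FC -2.73, SE 0.30, edgeR adjusted p = 8.1e-06). Its spread was wide in several groups, with means of 807 ± 237 CPM in NT5 and 163 ± 67.3 CPM in HT7 (SD, n = 3 each). The day 5 call was lost without HT5 replicate 1, HT5 replicate 2, NT5 replicate 2 or NT5 replicate 3, where the log2FC lay between -1.58 and -1.31 and the highest edgeR adjusted p was 0.0443. The ratio of PTPRB to TEK counts ranged from 1.73 to 2.86 in normoxia and from 1.88 to 3.43 in hyperoxia, so that the ranges overlapped.

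When day 5 was fitted alone, so that the spread came from its 5 samples, 4 of the calls of that day were lost. That fit called 12 genes in all, where the fit of all samples called 8.56% of all genes higher and 7.62% lower. ANGPT1, TEK, TIE1 and PTPRB then had log2FC values of -1.66, -1.57, -1.62 and -1.52 with edgeR adjusted p between 0.0142 and 0.0221, and ANGPT2 kept its call (edgeR adjusted p = 0.00967).

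**Figure D3:**
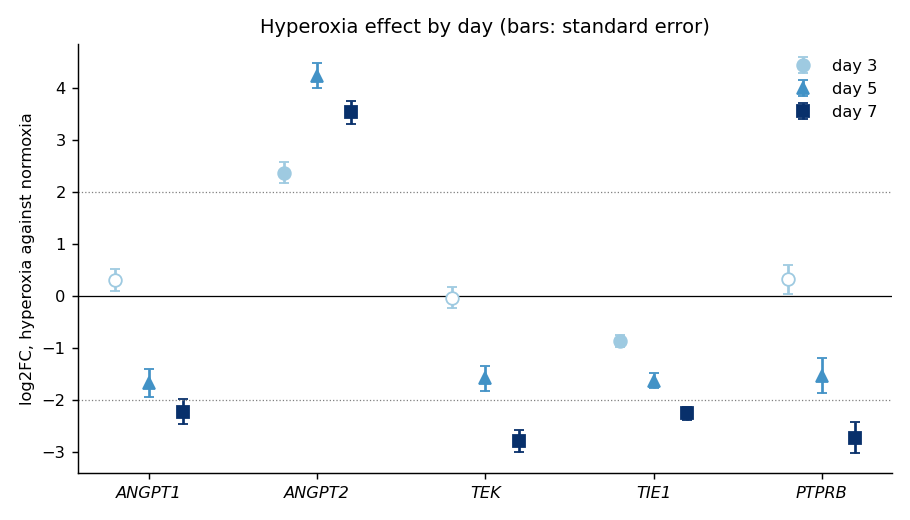
Log2FC of hyperoxia against normoxia for each gene, with bars of 1 SE. Circles stand for day 3, triangles for day 5 and squares for day 7, filled symbols are called at an adjusted p under 0.01, and dotted lines mark 2 and -2. ANGPT2 lies at 2.38, 4.24 and 3.54, and the other 4 genes lie between -2.79 and -2.23 on day 7.

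Whether the effect of hyperoxia itself differed between days was tested as a difference of differences. From day 3 to day 7 the effect changed by -2.54 for ANGPT1, -2.75 for TEK, -1.38 for TIE1 and -3.05 for PTPRB on the log2 scale, and all 4 differences were called (edgeR adjusted p = 0.000495, 0.00023, 0.000492 and 0.000594), in a test that called 4.68% of all genes in that direction. The 4 calls held when any 1 sample was left out, while the genes called in either direction, 955 in all, numbered 1967 without HT7 replicate 2, 817 without HT3 replicate 3, 642 without NT7 replicate 1 and 358 to 496 without any other sample of those days. For ANGPT2 the effect was larger by 1.16 on day 7, which was not called (edgeR adjusted p = 0.0134). From day 3 to day 5 the differences were -1.99 for ANGPT1, 1.86 for ANGPT2, -1.55 for TEK, -0.76 for TIE1 and -1.85 for PTPRB, with edgeR adjusted p between 0.018 and 0.052, and none of the 5 was called. That test called 0% of all genes, although 2664 genes had an unadjusted p under 0.05 and DESeq2 called 315, the 5 genes among them. Without HT5 replicate 1, a library with muscle markers, it called 240 genes, ANGPT2 (2.18, edgeR adjusted p = 0.00167) and TEK (-1.95, edgeR adjusted p = 0.00466) among them. From day 5 to day 7 the differences lay between -1.20 for TEK and PTPRB and -0.56 for ANGPT1, with edgeR adjusted p from 0.395 to 0.677, and 0% of all genes were called, against 1125 with an unadjusted p under 0.05 and 8 by DESeq2. These values moved with single samples, from -1.03 to -0.28 for ANGPT2 without HT5 replicate 1 or 2, and to -0.92 without HT7 replicate 2 and -0.36 without NT5 replicate 1 for ANGPT1. Differences between days that share a group use the same samples and are not independent.

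Within hyperoxia, day 7 was compared with day 3. ANGPT2 rose by 1.34 on the log2 scale, where 14.3% of all genes were called higher, and ANGPT1, TEK, TIE1 and PTPRB fell, with log2FC values of -2.17, -2.76, -1.54 and -2.61, where 15.1% of all genes were called lower. All 5 were called, with edgeR adjusted p from 3.26e-06 for TEK to 0.000171 for ANGPT2. Within normoxia the same comparison gave log2FC values from -0.16 for TIE1 to 0.44 for PTPRB, none called, with edgeR adjusted p from 0.888 to 0.999. No gene of the table was called there (0%), with 824 at an unadjusted p under 0.05 and 11 by DESeq2. Over the 9 normoxia samples ANGPT1 averaged 132 ± 26.1 CPM, ANGPT2 38.1 ± 6.13, TEK 400 ± 48.9, TIE1 202 ± 25.1 and PTPRB 892 ± 212 (SD). The ranges of NT3 and NT7 overlapped for every gene except ANGPT1, which lay between 115 and 132 CPM in NT3 and between 137 and 167 CPM in NT7. The share of all genes without overlap between NT3 and NT7 was not computed. ANGPT1 was not called between them (log2FC 0.37, edgeR adjusted p = 0.888).

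Markers of endothelial cells also moved with hyperoxia. Of 20 such genes on the list, 16 were in the table and tested, none of them at 0, and 0, 6 and 13 were called lower on days 3, 5 and 7, with a median log2FC of -0.29, -0.68 and -1.25, beside 0.107%, 7.62% and 16.9% of all genes called lower on those days. On day 5 the count called lower was 0 with only the samples of that day fitted, 4 with the replicate block and 2 without HT5 replicate 2. The fit of only the day 5 samples called 12 genes in all, so its count of 0 is no result about the markers. The summed level of the markers lay between 3190 and 4121 CPM in normoxia. In hyperoxia it lay at 3167 to 3832 CPM on day 3, 2173 to 2282 on day 5 and 1547 to 2125 on day 7. The genes of the list differed in their course. CDH5, which encodes VE-cadherin, fell by 1.96 on day 7 on the log2 scale (SE 0.14, edgeR adjusted p = 3.92e-07), whereas PECAM1, an adhesion molecule of endothelial cells and platelets, had values of 0.32, -0.15 and -0.05 on the 3 days and was never called. VWF, the clotting protein stored with angiopoietin-2 in the granules of endothelial cells, was called higher on day 5 (log2FC 1.14, SE 0.28, edgeR adjusted p = 0.00747) and had 1.10 on day 3 and 0.29 on day 7, not called. The day 5 call of VWF was lost with the replicate block, with only the samples of day 5 fitted and without HT5 replicate 1, HT5 replicate 2, NT5 replicate 1 or NT5 replicate 3.

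Each gene was therefore also set against the summed endothelial markers of the same sample, as the log2 of its share. On this scale ANGPT2 in hyperoxia exceeded normoxia by 2.52, 4.80 and 4.44 on days 3, 5 and 7, more than on the CPM scale. TEK differed by 0.12, -1.01 and -1.94, TIE1 by -0.72, -1.01 and -1.36, and PTPRB by 0.47, -0.88 and -1.92. ANGPT1, which is not mainly an endothelial transcript, differed by 0.46, -1.03 and -1.40. The hyperoxia and normoxia samples overlapped on this scale only for TEK on day 3. The share of all genes without overlap was not computed on this scale, so the lack of overlap is no result about these genes. The marker sum itself did not overlap between hyperoxia and normoxia on days 5 and 7. On days 5 and 7 the 4 lower genes were therefore lower than the markers as a sum as well, by less than their log2FC in CPM. This depends on which markers carry the sum, since abundant ones such as PECAM1 (log2FC -0.05 on day 7) moved little, while KDR, at -2.60 on day 7, lay further below 0 than ANGPT1 and TIE1 did, at -2.23 and -2.26. The values are given without a test, and the part of the endothelial share in each result was not tested beyond them.

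**Figure D4:**
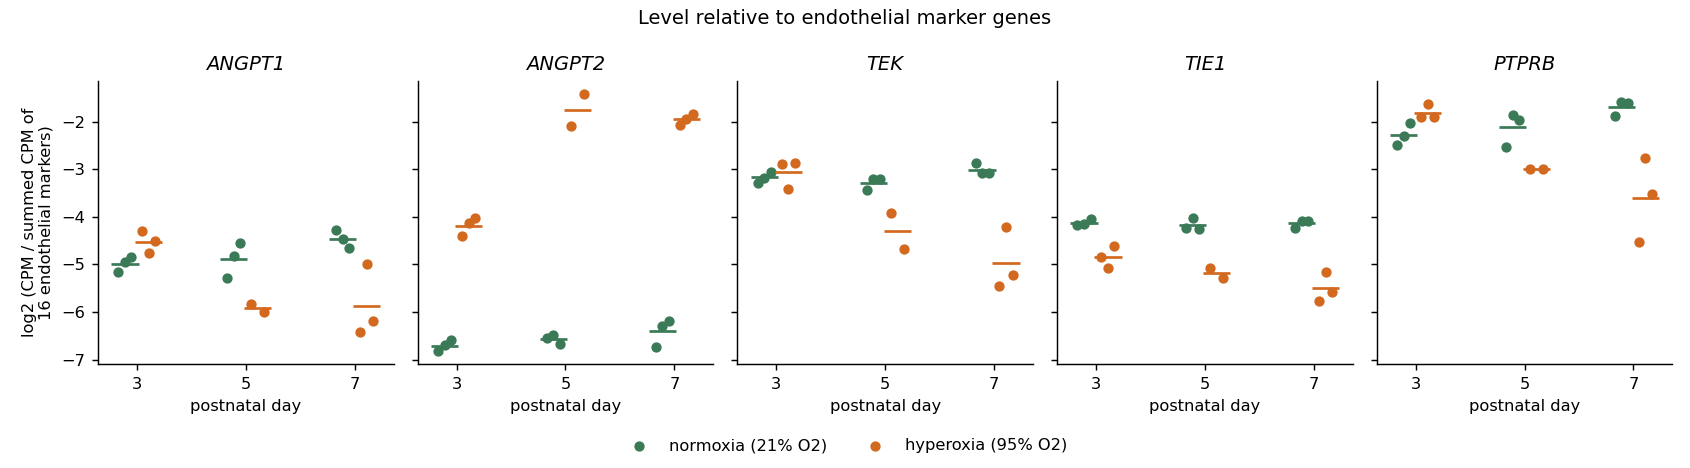
Level of each gene relative to the summed CPM of 16 endothelial marker genes of the same sample, on a log2 scale, against postnatal day, with normoxia in green and hyperoxia in orange. Points are samples and bars are group means. Hyperoxia exceeds normoxia by 2.52, 4.80 and 4.44 for ANGPT2 on days 3, 5 and 7, and lies 1.36 to 1.94 below it for the other 4 genes on day 7.

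The counts of the other marker lists are read beside the shares of all genes called. These were 8.56% higher and 7.62% lower on day 5 and 16.7% higher and 16.9% lower on day 7. The fit of only the day 5 samples called 12 genes in all, so a count of 0 in it is no result about a list. Pericytes, the cells that wrap capillaries and supply ANGPT1, were followed by 10 markers. On days 3, 5 and 7, 0, 2 and 6 of them were called lower and 0, 0 and 1 higher, none was at 0, and their sum was 591 to 652 CPM in HT7 against 770 to 1081 CPM in NT7. On day 3 it was 886 to 1062 CPM in HT3, below the 1084 to 1180 CPM of NT3 without overlap. In HT5 the sum was 838 and 1390 CPM, on either side of the 893 to 1125 CPM of NT5. Relative to this sum ANGPT1 in hyperoxia differed from normoxia by 0.49, -1.76 and -1.75 on the log2 scale on days 3, 5 and 7. Samples did not overlap on any day, and the share of all genes on this scale was not computed. The pericyte sum was carried by PDGFRB and NOTCH3, with log2FC values of -0.65 and -0.08 on day 7. COX4I2 and NDUFA4L2 stood at -2.50 and -2.57 on that day, further below 0 than ANGPT1 at -2.23, whereas ABCC9 stood at 1.29. Of 10 fibroblast markers, 0, 3 and 4 were called lower and 0, 0 and 1 higher, and ANGPT1 relative to their sum differed by 0.65, -1.15 and -2.02. The fibroblast sum was carried by COL1A1, COL1A2 and COL3A1, with log2FC values of -0.03, -0.45 and -0.25 on day 7. On that day COL13A1 and TCF21 stood at -2.07 and -1.56, and LUM at 1.25. The sums did not overlap on day 3 (7605 to 8925 CPM in HT3 and 9970 to 12241 CPM in NT3) or day 5 (5729 to 7349 CPM in HT5 and 8446 to 9523 CPM in NT5), and overlapped on day 7 (7277 to 8360 CPM in HT7 and 8111 to 10482 CPM in NT7). The 3 calls of day 5 were 0 with the replicate block, with only the samples of day 5 fitted and without HT5 replicate 2, NT5 replicate 2 or NT5 replicate 3, the 4 lower calls of day 7 were 2 without HT7 replicate 1 or NT7 replicate 2, and the 1 higher call was lost without HT7 replicate 3, NT7 replicate 1 or NT7 replicate 3. Platelets carry ANGPT1 too, and the 4 tested markers of platelets and their precursors summed to 11.1 to 23.1 CPM over all samples, with 1 called lower on day 7. Markers of lymphatic endothelium, where ANGPT2 is also made, gave 0, 1 and 2 of 6 called lower and none higher, with a sum of 1656 to 2086 CPM in HT3 against 986 to 1370 CPM in NT3 and of 813 to 861 CPM in HT7 against 1152 to 1503 CPM in NT7. The day 3 sum was carried by LYVE1 and MMRN1, since the other 4 genes had log2FC values below 0 on that day and the median of the list was -0.23. LYVE1, a hyaluronan receptor, with means of 799 CPM in NT3 and 1526 CPM in HT3, had a log2FC of 0.93 on day 3, not called (edgeR adjusted p = 0.0408), and was called lower on day 7 (log2FC -0.76, edgeR adjusted p = 0.00605). LYVE1 lost that call, and the lower count of day 7 was 1, without any 1 sample of that day other than NT7 replicate 2, and that of day 5 was 0 with only the samples of that day fitted. Of 9 macrophage markers 0, 1 and 1 were called higher and 0, 0 and 1 lower, with sums of 1905 to 2458 CPM in HT7 against 1142 to 1368 CPM in NT7. That sum was carried by CD68, a protein of lysosomes, whose mean was 688 CPM in NT7 and 1597 CPM in HT7, whereas MARCO, a scavenger receptor, had 61.3 and 13.5 CPM and the median log2FC of the list was -0.12 on day 7. The 1 higher call of day 5 was lost with the block, with only the samples of day 5 fitted and without HT5 replicate 2, NT5 replicate 2 or NT5 replicate 3, and the 1 lower call of day 7 with only the samples of day 7 fitted and without HT7 replicate 1, HT7 replicate 3 or NT7 replicate 1. The HT7 sample with the highest sum of epithelial markers was replicate 2. This sample also had the highest ANGPT1, TEK, TIE1 and PTPRB and the lowest ANGPT2 of its group. Its sum of endothelial markers was the lowest of the group, at 1547 CPM against 2125 and 1955 CPM in HT7 replicates 1 and 3. Without HT7 replicate 2 the day 7 log2FC of ANGPT1, TEK, TIE1, PTPRB and ANGPT2 was -2.59, -3.07, -2.29, -3.03 and 3.66, all called. Markers of alveolar epithelium gave 0, 2 and 4 of 10 called lower, and those of skeletal muscle 0, 0 and 1 of 6. For epithelium the day 5 count was 0 without HT5 replicate 2 and with only the samples of that day fitted, 3 without HT5 replicate 1, and 1 with the block or without any 1 NT5 sample, and the day 7 count was 3 or 4 when 1 sample was left out. The call of a muscle marker on day 7 was lost with the block and without NT7 replicate 2, and 1 was called lower on day 5 without HT5 replicate 1. The part of these cell types in the results was not tested.

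Genes around the Tie receptors were described from lists of general knowledge, and their counts are read beside the same shares of all genes. The day 5 calls were the less stable when samples were left out. With only the samples of day 5 fitted, 0 genes of the 5 lists were called on that day. That fit called 12 genes in all, so its count of 0 is no result about the lists. Of the genes named in the 5 lists, without HT5 replicate 2 the day 5 calls of ITGAV, ADAM17, PTPN11, NRAS, PIK3R1, GRB7, PGF, JUP, KDR, DLL4, NID2 and GATA3 were lost, and with the replicate block those of ITGAV, ADAM17, PTPN11, NRAS, PIK3R1, PGF and DLL4 were lost. Those of ITGAV, ADAM17, PIK3R1, DLL4 and GATA3 were also lost without HT5 replicate 1, those of ITGAV, NRAS, PGF and PIK3R1 without any 1 NT5 sample, and those of ADAM17 and DLL4 without NT5 replicate 2 or 3. Of the day 7 calls of named genes, those lost when 1 sample was left out were of ADAM17 (HT7 replicate 3 or any NT7 sample), GRB7 (HT7 replicates 1 and 2, NT7 replicates 1 and 2), SVEP1 (HT7 replicates 1 and 3, NT7 replicates 2 and 3), NOS3 (HT7 replicates 2 and 3, NT7 replicate 1) and ELF1 (HT7 replicates 1 and 3 or any NT7 sample). With only the samples of day 7 fitted the named genes ITGAV, SVEP1, NOS3, ELF1 and PLAUR lost their call, and with the block ELF1 did. Genes of the lists that are not named lost calls as well. Outside the cell, 7 of 10 further ligands, co-receptors and shedding enzymes were in the table and tested, of which 0, 2 and 2 were called higher and 0, 0 and 2 lower on days 3, 5 and 7 (medians 0.02, -0.35 and 0.11). With the replicate block 0 were called on day 5. ITGAV, the integrin alpha V chain, was higher by 0.75 and 0.80 on the log2 scale on days 5 and 7 (edgeR adjusted p = 0.00667 and 0.00121), and ADAM17, a protease that sheds membrane proteins, by 0.69 and 0.64 (edgeR adjusted p = 0.00999 and 0.00498). On day 7 ITGB5, a beta chain that pairs with ITGAV, was lower by 1.09 (log2FC -1.09, edgeR adjusted p = 0.000145), and SVEP1, an extracellular protein that binds the TIE1 receptor, was lower at -0.87 (edgeR adjusted p = 0.0033). ANGPT4, the remaining Tie2 ligand, had 0.02, -0.62 and 0.11 and was never called.

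Inside the cell, 18 of 22 genes that carry the Tie2 signal were tested, and 0, 2 and 1 were called higher and 0, 2 and 3 lower on days 3, 5 and 7, with medians of 0.02, 0.03 and -0.11. On day 7 these were shares at or below those of all genes, so the count is no result about the list, and its genes are given as single values. PTPN11, the phosphatase SHP2, was higher on days 5 and 7 (log2FC 0.53 and 0.49, edgeR adjusted p = 0.00173 and 0.000568), and NRAS, a small GTPase, on day 5 (log2FC 0.43, edgeR adjusted p = 0.00583). PIK3R1, the regulatory chain of PI3-kinase, was lower by day 5 (log2FC -0.76 and -1.36, edgeR adjusted p = 0.00826 and 2.48e-05), as was GRB7, an adaptor that binds Tie2 (log2FC -1.89 and -1.10, edgeR adjusted p = 0.00133 and 0.00612). NOS3, the endothelial nitric oxide synthase, was lower on day 7 (log2FC -1.49, SE 0.39, edgeR adjusted p = 0.00541). The other 14 genes of the list were not called on day 7.

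Of 11 transcription factors reported to act on ANGPT2 or TEK, 6 were in the table and tested. On day 3, 1 was called lower, on day 5, 3 were, and on day 7, 4 were lower and 2 higher, with medians of -0.09, -0.96 and -1.19. ETS1, a factor of endothelial gene programmes, was the 1 called on day 3 (log2FC -0.97, SE 0.13, edgeR adjusted p = 0.00177). That call was lost with the replicate block (log2FC -0.99, edgeR adjusted p = 0.0237) and without HT3 replicate 1, HT3 replicate 2 or any 1 of the NT3 samples (edgeR adjusted p from 0.0105 to 0.0162). ETS1 stood at -1.35 and -1.45 on days 5 and 7 (edgeR adjusted p = 6.23e-05 and 2.58e-06). ERG, a relative of ETS1, was lower on days 5 and 7 (log2FC -1.32 and -1.75, edgeR adjusted p = 0.00011 and 1.44e-06), and so was GATA3, a zinc finger factor (log2FC -1.82 and -2.60, edgeR adjusted p = 0.00168 and 1.81e-05). On day 7 HIF1A, the inducible chain of hypoxia-inducible factor 1, was higher (log2FC 1.21, SE 0.16, edgeR adjusted p = 5.01e-05), as was ELF1 (log2FC 0.36, edgeR adjusted p = 0.0059). EPAS1, another hypoxia-inducible factor of the list, was lower on that day (log2FC -0.92, edgeR adjusted p = 0.00159). Its call in other fits is not given here.

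Of 15 genes of the endothelial junction and substrates of VE-PTP, 13 were tested, and 0, 8 and 12 of them were called lower on days 3, 5 and 7 and none higher, with medians of -0.18, -0.63 and -0.91, beside 7.62% and 16.9% of all genes called lower on days 5 and 7. The count of day 5 was 4 with the replicate block, 5 without NT5 replicate 2 and 2 without HT5 replicate 2, and that of day 7 was 7 with only the samples compared and 8 to 11 when 1 sample was left out, lowest without NT7 replicate 3. KDR, the main VEGF receptor of endothelial cells, was lower on days 5 and 7 (log2FC -1.73 and -2.60, edgeR adjusted p = 0.000939 and 5.71e-06). CDH5, which is also on the endothelial marker list together with KDR and PECAM1, stood at -1.41 and -1.96 (edgeR adjusted p = 6.23e-05 and 3.92e-07). JUP, a catenin of the junction, was lower on both days (log2FC -1.10 and -1.27, edgeR adjusted p = 0.000944 and 3.93e-05), and so was FGD5, an endothelial exchange factor for a small GTPase (log2FC -0.94 and -1.48, edgeR adjusted p = 0.00092 and 3.91e-06). PECAM1 was the 1 gene of this list not called on day 7.

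Of 10 genes of endothelial tip cells and sprouting, the cells in which ANGPT2 is known to be high, 0, 1 and 2 were called higher and 0, 2 and 4 lower on days 3, 5 and 7, with medians of 0.16, -0.42 and -0.75. PGF, a growth factor of the VEGF family, was higher on days 5 and 7 (log2FC 1.71 and 2.11, edgeR adjusted p = 0.00609 and 0.00038), and PLAUR, the urokinase receptor, on day 7 (log2FC 2.01, edgeR adjusted p = 0.000623). DLL4, the Notch ligand of tip cells, was lower (log2FC -1.37 and -2.63, edgeR adjusted p = 0.00937 and 2.11e-05), and so was NID2, a basement membrane protein (log2FC -1.27 and -1.36, edgeR adjusted p = 0.002 and 0.000162). KCNE3, a potassium channel subunit, had a log2FC of 1.25 on day 3, not called (edgeR adjusted p = 0.0322), and was lower on day 7 (log2FC -1.35, edgeR adjusted p = 0.000532), and its effect differed between these days by -2.60 (edgeR adjusted p = 0.000706). The higher counts of 1 and 2 of 10 were near the 8.56% and 16.7% of all genes called higher on days 5 and 7 and are no result about the list, whereas the lower counts of 2 and 4 of 10 lay above the 7.62% and 16.9% of all genes called lower. The lower count of day 5 was 0 without HT5 replicate 2 and 1 with the replicate block or without HT5 replicate 1, NT5 replicate 2 or NT5 replicate 3, and that of day 7 was 4 or 5 when 1 sample was left out.

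**Figure D5:**
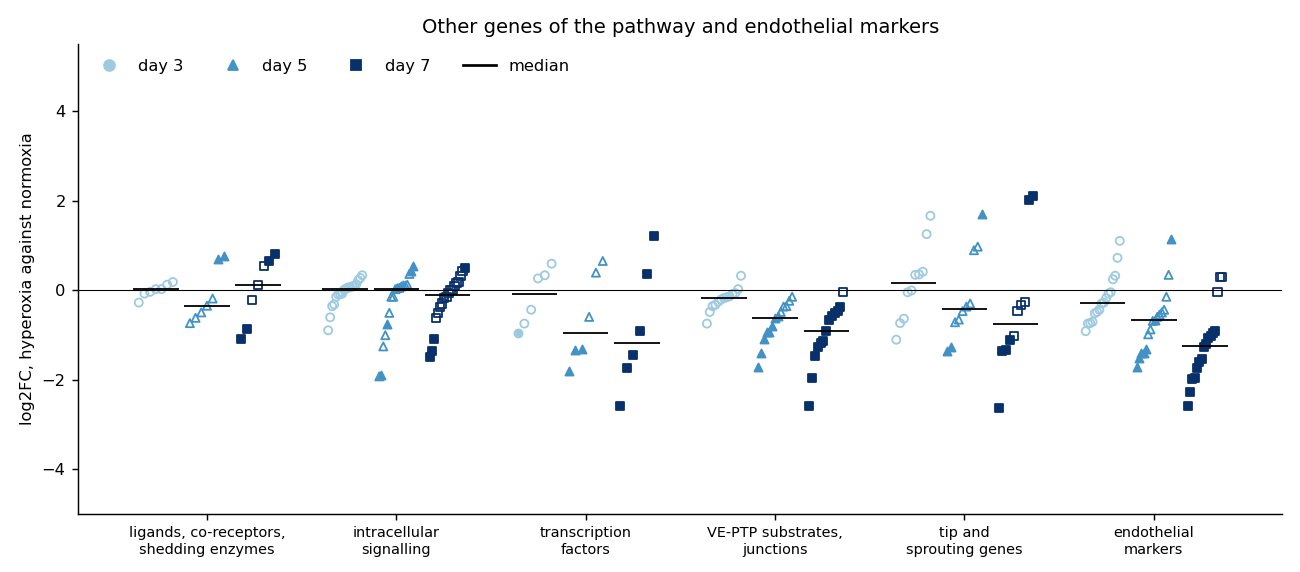
Log2FC of hyperoxia against normoxia for 5 lists of pathway genes and for the endothelial markers, with circles for day 3, triangles for day 5 and squares for day 7, filled where called at an adjusted p under 0.01, and a bar at each median. Of the 13 genes of VE-PTP substrates and junctions 12 are called lower on day 7, whereas 14 of the 18 intracellular signalling genes are not called.

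The genes whose course over the 17 samples was most like that of each member were found by the root mean square (RMS) difference of log2 CPM, centred on each gene's own mean, among 11365 genes. The measure is partly set by the groups that all genes share, and is given as a description. ANGPT1 was nearest to NPR1, TSPAN7 and VEGFD, with RMS differences of 0.23, 0.24 and 0.28, and VEGFD shares its locus with another listed gene. TEK was nearest to COX4I2 (0.23), FHL1 (0.27) and FMO2 (0.27), of which COX4I2 is on the pericyte list. TIE1 had the closest neighbours, FOXF2, NTN1 and HSPA12B, each at 0.17, and PTPRB was nearest to METTL7A (0.26), FMO2 (0.28) and NPR1 (0.29). ANGPT2 had no gene as near, with the locus shared by ISG20 and AEN at 0.39 and SESN2 at 0.52. The log2FC of the ISG20 and AEN locus was 2.05, 3.84 and 4.14 on days 3, 5 and 7, and that of SESN2 1.35, 3.25 and 3.45. Among the members, PTPRB differed from TEK by 0.32 and from ANGPT1 by 0.31, ANGPT1 from TEK by 0.33 and TEK from TIE1 by 0.43, whereas ANGPT2 differed from the other 4 by 2.54 to 2.73.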

How the data were processed

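Stranded poly(A) RNA libraries of 17 lung homogenates were sequenced as paired-end reads. The authors deposited raw counts per gene without normalization. The submitters' processing notes name FastQC, STAR 2.7.10a and OryCun2.0, and the counting program is not given in the sources used here. The table has 13827 entries at 13313 loci, since 434 loci carry several genes with the same counts.

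Counts were fitted with edgeR 4.0.16 in R 4.3.3 (filterByExpr, TMM factors, quasi-likelihood test, 6 group means over all 17 samples, prior count of 0.125), which left 685 entries untested. The script was tested on simulated counts. Named were the 5 members, up to 3 called genes per direction, day and pathway list with the largest log2FC, and the 3 genes most like each member with a mean of at least 1 log2 CPM. VWF, PECAM1, ANGPT4, EPAS1, LYVE1, MMRN1, CD68, MARCO and MCPH1 were named after their values were seen. So were PDGFRB, NOTCH3, NDUFA4L2 and ABCC9 of the pericyte list, and COL1A1, COL1A2, COL3A1, COL13A1, TCF21 and LUM of the fibroblast list. Some genes of the lists are not reported here by name. Members, lists and tests were chosen with earlier results of these data known. Alternatives were DESeq2 1.42.0, other scaling factors, filters, prior counts and samples, 1 entry per locus, the replicate block and leaving out each sample. Reading the gene lists under these alternatives was added after seeing the data. Figures were made with Python 3.11 and matplotlib 3.10.9.

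The correlation of deviations from the group means between samples of the same replicate number was 0.166, 0.131 and 0.199 for the pairs of day 3, 0.264 and 0.141 for those of day 5, and 0.174, 0.109 and 0.0695 for those of day 7. It exceeded 0.1 for every pair of days 3 and 5. Calls of the day 3 comparison are therefore also given with the replicate block where it changes them, and the block was read for day 5 as well. What the numbers stand for is not given in the sources used here.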

Additional observations from a re-analysis of the deposited data

Results flagged for a closer look

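The effect of hyperoxia differed between day 7 and day 3 for 4 of the 5 genes, by the test of the difference itself. That test called 4.68% of all genes in the same direction. The log2FC of day 7 minus that of day 3 was -2.54 for ANGPT1, from 0.31 to -2.23, and -2.75 for TEK, from -0.03 to -2.79. It was -1.38 for TIE1, from -0.87 to -2.26, and -3.05 for PTPRB, from 0.32 to -2.73. The edgeR adjusted p lay between 0.00023 and 0.000594. For each of these genes the 3 hyperoxia samples of day 7 lay below the 3 normoxia samples of that day. The groups of day 7 did not overlap for 54.5% of all tested genes. All 4 differences stayed called in every alternative run, with the highest edgeR adjusted p at 0.00408. ANGPT2, whose effect was positive on each day, gave 1.16 (edgeR adjusted p = 0.0134).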

How the results depend on the processing

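Of the values of the 5 genes recomputed under the alternatives, 594 kept their direction and side of the threshold. Of the rest, 16 lost their call, 10 gained one and 5 changed sign. Under DESeq2 the day 5 minus day 3 differences were called for ANGPT1 (-1.98), ANGPT2 (1.87), PTPRB (-1.85), TEK (-1.55) and TIE1 (-0.75), as was day 7 minus day 3 for ANGPT2 (1.15), which was also called with only the samples compared (1.14). In fits of only the samples compared, the day 5 values of ANGPT1 (-1.66), PTPRB (-1.52), TEK (-1.57) and TIE1 (-1.62) lost their call. With library totals alone TEK within normoxia changed sign (0.01).

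With the replicate block TIE1 on day 3 (-0.87) lost its call, and no other member lost or gained one. The block was set within each day, so comparisons of days within 1 condition could not be fitted with it. It left 2 genes called and 2 DEGs on day 3, and 967 and 135 on day 5, where 2126 genes were called and 208 were DEGs without it. DESeq2 gave 204 called genes and 18 DEGs on day 3, against 27 and 7. Only the samples compared gave 12 called genes and 11 DEGs on day 5, and 2924 called on day 7 against 4413. For day 7 minus day 3, the block gave 600 called genes and DESeq2 1907, against 955, and within hyperoxia only the samples compared gave 1936 against 3869.

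Leaving out 1 sample gave -0.09 to 0.06 for TEK and -0.93 to -0.83 for TIE1 on day 3, and on day 5 -1.88 to -1.53 for ANGPT1, -1.74 to -1.31 for PTPRB and -1.98 to -1.29 for TEK. The day 5 minus day 3 difference ranged from 1.42 to 2.18 for ANGPT2 and from -1.95 to -1.26 for TEK, each called without HT5 replicate 1, and day 7 minus day 3 from 0.97 to 1.28 for ANGPT2, called without HT7 replicate 2. TEK within normoxia ranged from -0.05 to 0.05. Called genes ranged from 2 to 23 on day 3 and from 221 to 2371 on day 5, and DEGs from 2 to 7 and from 46 to 376, the last pair without HT5 replicates 2 and 1. Day 3 gave 2 called genes and 2 DEGs without any 1 of NT3 replicates 1, 2 and 3, 4 and 3 without HT3 replicate 1, and 11 called genes without HT3 replicate 2. Day 5 gave 221 without HT5 replicate 2, and 1207 and 1183 without NT5 replicates 2 and 3. Where HT5 was left with 1 sample, that sample was assumed to vary like the other groups. These comparisons rest on 2 or 3 samples a group, and depth was not varied. The cause of these shifts was not tested.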
